A study of Mus musculus with 12 samples.

Results

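The Ikaros family of zinc finger transcription factors (Ikzf1 to Ikzf5) and 4 further genes used as markers of thymus-derived regulatory T cells (Treg), Nrp1, Gpr83, Swap70 and Izumo1r, were followed across 3 groups of splenic Treg. These 9 genes, of 22180 named by the array's annotation, were a given list of symbols, set with earlier results of these data known. Each was read by 1 probe set. The study compared Treg of DEREG mice, a line in which a bacterial artificial chromosome with the Foxp3 locus drives a diphtheria toxin receptor fused to green fluorescent protein, so that Foxp3-expressing cells can be sorted and also killed by diphtheria toxin (DTx). All mice were sensitized to and challenged with ovalbumin (OVA), which gives allergic airways disease, and all Treg were sorted from the spleen. The 4 arrays titled eTreg (endogenous Treg) are of mice that received HSA (human serum albumin) as the control protein and, by the series design, no DTx. The 4 titled e_iTreg came from mice given intravenous immunoglobulin (IVIg) without DTx, and their label calls the cells a mixture of endogenous and IVIg-induced Treg. The 4 titled iTreg came from mice that received 40 ng/g DTx to deplete their Treg and then IVIg, and the label calls them IVIg-induced. HSA and IVIg were given at 2 g/kg. The labels' growth protocol, the same for every sample, names DTx before IVIg or HSA, so the albumin mice are without DTx on the word of the series design alone. The labels state neither the age and sex of the mice nor whether mice were pooled. iTreg differed from eTreg by both DTx and IVIg, which cannot be told apart in that comparison, and from e_iTreg by DTx. After depletion the sorted cells can be Treg that survived the toxin as well as newly formed ones, and the arrays do not separate these.

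Ikaros family proteins bind DNA through N-terminal zinc fingers, pair with each other through C-terminal ones, and recruit corepressors such as the NuRD, Sin3 and CtBP complexes. In T cells Ikzf1 (Ikaros) and Ikzf3 (Aiolos) are broadly expressed, whereas Ikzf2 (Helios) and Ikzf4 (Eos) are characteristic of Treg, where Eos works with Foxp3 to silence effector genes. Helios and Nrp1 (neuropilin-1, a coreceptor for semaphorins and vascular endothelial growth factor) are the markers most often used to tell Treg made in the thymus from those formed in the periphery, although neither is exclusive to them.

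The arrays held T cell transcripts at high levels and some transcripts of genes used as markers of other cells. Values are log2 expression, made by the authors with RMA, and array medians ran from 6.28 to 6.50. The mean level of Foxp3 over the 4 eTreg arrays was 12.46 ± 0.09, over e_iTreg 12.30 ± 0.21 and over iTreg 12.17 ± 0.25 (SD), with Il2ra (CD25) at 11.94 ± 0.15, 11.85 ± 0.23 and 11.82 ± 0.23, and Cd4 at 10.44 ± 0.08, 10.40 ± 0.09 and 10.52 ± 0.09 in the same order. Of 9 measured T cell markers 0 passed limma's test in any comparison. The mean of 13 B cell markers ranged from 6.13 to 8.01 in eTreg, from 6.13 to 7.95 in e_iTreg and from 7.03 to 7.51 in iTreg. It was lowest in eTreg replicates 3 and 4 and e_iTreg replicate 4. The mean of 12 monocyte, macrophage and dendritic cell markers ran from 6.47 to 7.15 in eTreg, from 6.37 to 7.15 in e_iTreg and from 7.32 to 8.50 in iTreg, so that every iTreg array lay above all others. The mean of 8 plasma cell markers was 9.43 in iTreg replicate 4 and between 7.37 and 7.66 in the other iTreg arrays. The mean of 9 CD8 T and NK cell markers ran from 6.09 to 6.63, 6.08 to 6.65 and 6.34 to 6.75 in the 3 groups, and 0 of them passed the test.

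**Figure D1:**
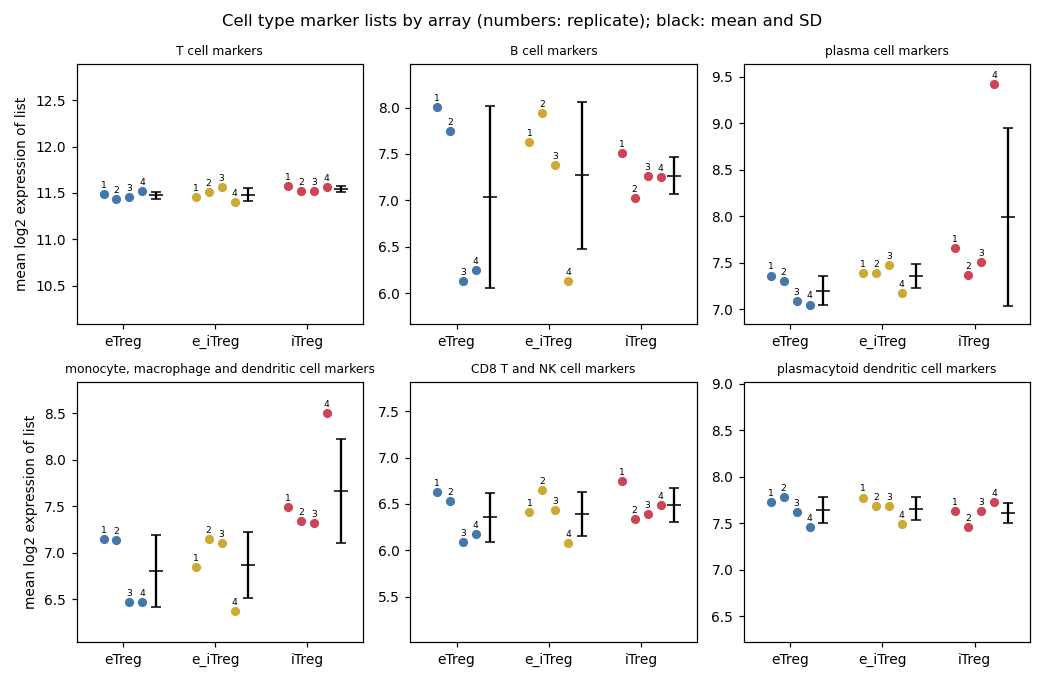
Mean log2 expression of 6 cell type marker lists in each array, with the replicate number above each point and the mean and SD of 4 arrays in black. The B cell list is lowest in eTreg replicates 3 and 4 and e_iTreg replicate 4, and the plasma cell list stands at 9.43 in iTreg replicate 4.

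Under IVIg without depletion the 9 genes stayed close to their levels under albumin. In e_iTreg minus eTreg 0 of the 9 passed limma's test at an adjusted p of 0.05, 0 had an unadjusted p under 0.05, and over all rows tested the share called was 0%. In 0 of the 9 did the 4 arrays of one group all lie on one side of the other's, against 4.29% of all rows, 1.66% with e_iTreg lower and 2.63% with e_iTreg higher. In all, 8 of the 9 log2 differences lay between -0.0632 and 0.0564, with standard errors (SE) of 0.10 to 0.14. The remaining one, Gpr83, was at -0.31 ± 0.30 with a 95% interval of -0.95 to 0.34. The 95% interval for Ikzf2 was -0.17 to 0.26, that for Ikzf4 -0.29 to 0.31 and that for Nrp1 -0.21 to 0.32, so changes within these bounds could not be resolved with 4 arrays per group.

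After depletion and IVIg, Ikzf4, Izumo1r and Swap70 fell while the other 4 Ikaros family genes did not pass the test. In iTreg minus eTreg 3 of the 9 fell and 0 rose, where 9.99% of all rows tested were called, 5.36% higher and 4.63% lower. In iTreg minus e_iTreg the same 3 genes fell and 0 rose, against 11.2% called over all rows, 6.49% higher and 4.75% lower. Of these calls 57.7% were higher, and after centring each array on its median 79.9% were (2066 higher, 521 lower), with the same 3 genes lower. The iTreg arrays lay wholly below eTreg for 3 genes, against 14.7% of rows without overlap (7.82% lower, 6.9% higher), and below e_iTreg for 4, against 16.6% (9% lower, 7.57% higher). Both comparisons use the same iTreg arrays. The median log2 difference of the 9 genes was -0.32 against eTreg and -0.38 against e_iTreg, beside -0.01 and -0.07 over all rows. In sorted bulk samples fewer cells that express a gene and less RNA per cell cannot be told apart. The series design calls the arrays biological replicates and says no more of how mice and sorts were kept separate, so the tests speak for the spread among these arrays.

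**Figure D2:**
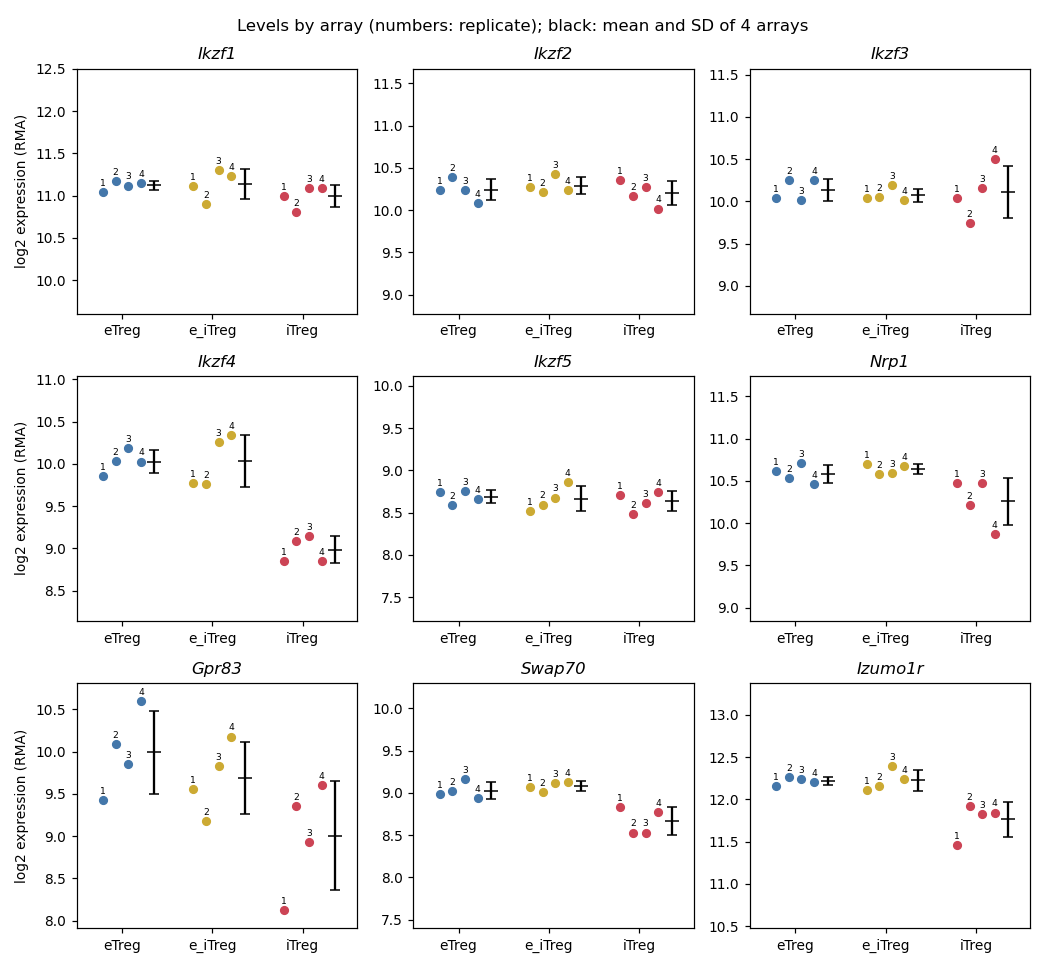
Log2 expression of the 9 genes in each of the 12 arrays, with the replicate number above each point and the mean and SD of 4 arrays in black; every panel spans the same number of log2 units. The 4 iTreg arrays lie below all others for Ikzf4, Swap70 and Izumo1r, and the groups overlap for Ikzf1, Ikzf2, Ikzf3 and Ikzf5.

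Ikzf4, which encodes Eos, showed the clearest separation. Its levels in replicates 1 to 4 were 9.85, 10.03, 10.19 and 10.03 in eTreg, 9.78, 9.77, 10.26 and 10.34 in e_iTreg, and 8.85, 9.09, 9.15 and 8.85 in iTreg. All iTreg arrays lay below every other array, with a gap of 0.70 to the lowest eTreg array and 0.62 to the lowest e_iTreg array, while eTreg and e_iTreg overlapped. The gene fell by 1.04 ± 0.14 on the log2 scale against eTreg (SE, adjusted p = 0.00075), a level 2.06-fold lower. Against e_iTreg the log2 difference was -1.05 ± 0.14 (adjusted p = 0.000859), 2.07-fold lower. Only 44 of the 23521 rows had a lower log2 difference against eTreg and 48 against e_iTreg. The means of eTreg and e_iTreg, 10.03 and 10.04, differed by 0.01 with an SE of 0.14.

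The fall of Ikzf4 was measured again with the B cell and the monocyte, macrophage and dendritic cell marker lists taken into account. No such fit used the CD8 T and NK cell list, with which Ikzf4 had a Pearson r of -0.72 with group means removed. Leaving out the 3 arrays with the least B cell signal, which kept 2 eTreg and 3 e_iTreg arrays, gave -0.96 ± 0.16 against eTreg (adjusted p = 0.0218) and -0.95 ± 0.14 against e_iTreg (adjusted p = 0.00683). With the B cell marker mean as a covariate it kept its call against eTreg (SE 0.12, adjusted p = 0.000218). With the mean of the monocyte, macrophage and dendritic cell list as a covariate, a setting chosen after seeing the data, it was -0.82 ± 0.17 against eTreg, with an adjusted p of 0.0584 that missed the threshold, and -0.84 ± 0.17 against e_iTreg (adjusted p = 0.037). The iTreg arrays do not overlap the others in that list, so the covariate and the group cannot be fully separated. Whether the RNA of its genes came from other cells or from the sorted Treg was not tested. Of its 12 genes Itgam (1.68 ± 0.29), Ccr2 (1.96 ± 0.39) and Cst3 (0.57 ± 0.13) rose against eTreg, and Ly6c2 (1.38 ± 0.42) besides these against e_iTreg. All 12 estimates against eTreg were above 0, and 8 of the 12 had an unadjusted p under 0.05. Beside the 3 called these were S100a8 (1.52 ± 0.51), Ly6c2 (1.33 ± 0.42), S100a9 (0.87 ± 0.35), Fcgr1 (0.52 ± 0.21) and Cd14 (0.37 ± 0.14), none past the adjusted threshold. The others were Csf1r (0.47 ± 0.39), Lyz2 (0.45 ± 0.37), Adgre1 (0.35 ± 0.34) and Itgax (0.21 ± 0.22). In iTreg replicate 4 Csf1r stood at 8.99 and Adgre1 at 8.29, with the other iTreg arrays at no more than 7.004 and 6.49. Without iTreg replicate 4 the Ikzf4 difference was -1.01 ± 0.15 against e_iTreg (adjusted p = 0.00204). Of this list, the genes other than Itgam, Ccr2 and Cst3 were named after their values were seen.

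Ikzf2, which encodes Helios, did not separate the groups. Its levels were 10.24, 10.39, 10.24 and 10.09 in eTreg, 10.27, 10.21, 10.43 and 10.24 in e_iTreg and 10.35, 10.17, 10.27 and 10.02 in iTreg. The highest iTreg array stood above 3 of the eTreg arrays. The difference was -0.04 ± 0.10 against eTreg (95% interval -0.25 to 0.18, adjusted p = 0.905) and -0.09 ± 0.10 against e_iTreg (interval -0.30 to 0.13, adjusted p = 0.623). A fall of the size seen for Ikzf4 lies outside both intervals.

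Ikzf1, the founding member of the family, did not pass the test. Its mean was 11.12 ± 0.06 for eTreg, 11.14 ± 0.18 for e_iTreg and 10.99 ± 0.13 for iTreg (SD, n = 4 each). The iTreg arrays ran from 10.80 to 11.09 and overlapped both other groups. The difference from eTreg was -0.13 ± 0.10 (interval -0.35 to 0.10).

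Ikzf3, which encodes Aiolos and is also strongly expressed by B and plasma cells, varied most within iTreg. Its levels were 10.03, 10.25, 10.02 and 10.25 in eTreg, 10.04, 10.05, 10.19 and 10.02 in e_iTreg and 10.04, 9.74, 10.16 and 10.50 in iTreg. The highest and the lowest of all 12 arrays were both iTreg arrays, and the highest, replicate 4, was the one with the high plasma cell markers. The difference from eTreg was -0.03 ± 0.13, and without iTreg replicate 4 it was -0.16 ± 0.12 (adjusted p = 0.538). With the plasma cell marker mean as a covariate, chosen after seeing the data, it was -0.24 ± 0.13 (adjusted p = 0.345).

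Ikzf5, which encodes Pegasus, the most divergent member of the family, averaged 8.69 ± 0.08 for eTreg, 8.66 ± 0.15 for e_iTreg and 8.63 ± 0.12 for iTreg (SD, n = 4 each). Its difference was -0.06 ± 0.10 against eTreg and -0.03 ± 0.10 against e_iTreg, both inside the replicate spread.

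**Figure D3:**
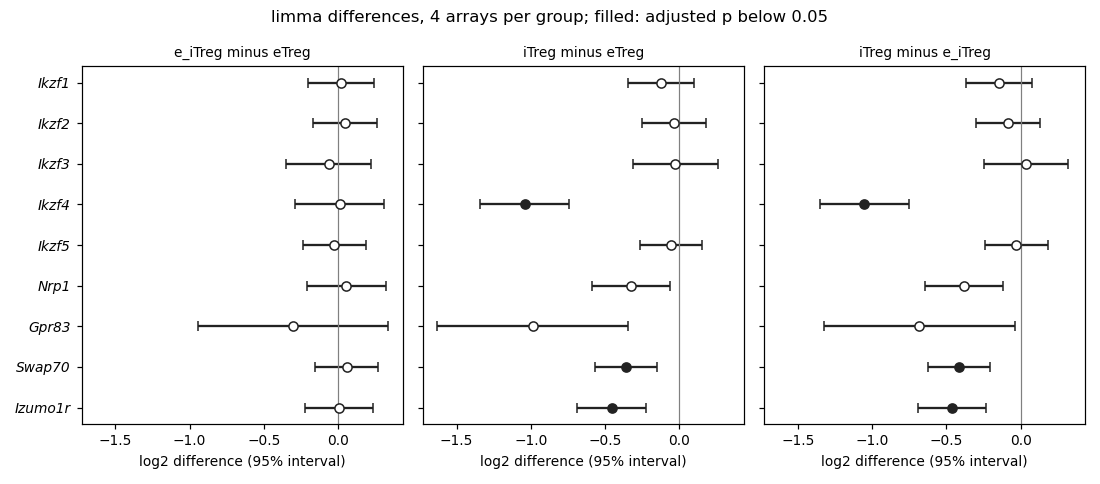
Log2 differences of the 9 genes in the 3 comparisons with 95% intervals from limma, 4 arrays per group; filled points have an adjusted p below 0.05. Ikzf4, Swap70 and Izumo1r are filled in both comparisons with iTreg and no gene is filled in e_iTreg minus eTreg.

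Whether Eos moved apart from its relatives was read within each array, where a shift of the whole array cancels. The log2 ratio of Ikzf4 over Ikzf2, relative to the probe sets' own brightness, was -0.38, -0.36, -0.05 and -0.06 in eTreg, -0.49, -0.45, -0.17 and 0.10 in e_iTreg and -1.51, -1.08, -1.12 and -1.17 in iTreg. Every iTreg array lay below all others. The difference between iTreg and eTreg was -1.005 ± 0.13 and that between iTreg and e_iTreg -0.97 ± 0.17 (SE). Ikzf4 over Ikzf1 gave -0.92 ± 0.13 and -0.91 ± 0.15, again with no overlap. For these 4 differences the two-sided exact permutation test over arrays gave p = 0.0286, the smallest that 4 against 4 allows. After Benjamini-Hochberg adjustment over the 9 ratios tested it was 0.0643, which misses 0.05. At that smallest p the 4 could pass only if more of the 9 reached it too, so the miss was largely set by the design. The ratios use the same Ikzf4 values as the comparisons above. Between e_iTreg and eTreg the 2 ratios differed by -0.04 ± 0.16 and -0.01 ± 0.11.

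**Figure D4:**
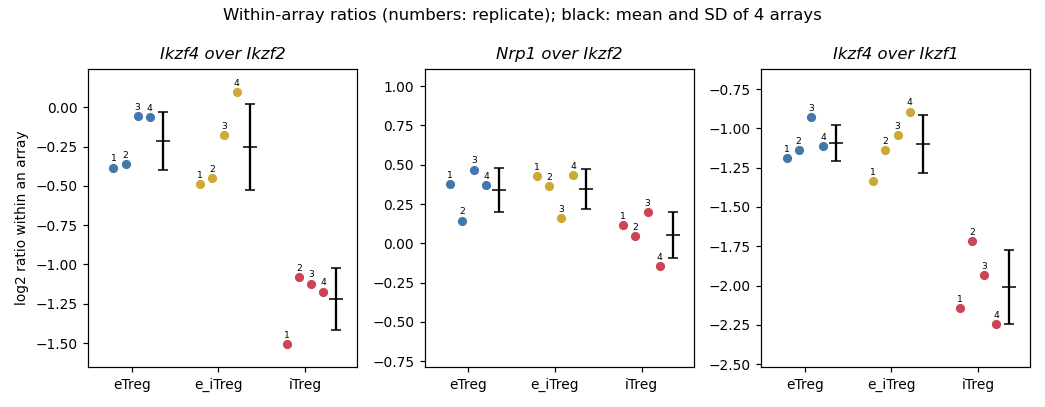
Log2 ratios between genes within each array, with the replicate number above each point and the mean and SD of 4 arrays in black; only differences between groups can be read, since the probe sets differ in brightness. Ikzf4 over Ikzf2 lies between -1.51 and -1.08 in iTreg and between -0.49 and 0.10 in the other 8 arrays.

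Nrp1 was lower in iTreg on average, without passing the threshold. Its levels were 10.61, 10.54, 10.71 and 10.46 in eTreg, 10.70, 10.58, 10.59 and 10.67 in e_iTreg and 10.47, 10.21, 10.47 and 9.87 in iTreg. The iTreg arrays lay below all e_iTreg arrays, as did 9% of all rows, and 2 of the 4 lay below all eTreg arrays. The difference was -0.32 ± 0.12 against eTreg (interval -0.59 to -0.06, adjusted p = 0.127) and -0.38 ± 0.12 against e_iTreg (interval -0.64 to -0.12, adjusted p = 0.0624). The lowest value belonged to iTreg replicate 4, and without that array the differences were -0.20 ± 0.11 (adjusted p = 0.329) and -0.25 ± 0.11 (adjusted p = 0.16). With the plasma cell marker mean as a covariate the difference from eTreg was -0.13 ± 0.12 (adjusted p = 0.659), and with that of the monocyte, macrophage and dendritic cell list -0.10 ± 0.15 (adjusted p = 0.863). The plasma cell mean stood apart in that same iTreg replicate 4, so its covariate largely repeats leaving that array out. In the other list the iTreg arrays do not overlap the rest, so covariate and group cannot be fully separated. The comparison with e_iTreg passed without iTreg replicate 1 (-0.45, adjusted p = 0.0497) or iTreg replicate 3 (-0.45, adjusted p = 0.0478), after quantile normalization (-0.41, adjusted p = 0.0461), among rows above the median level (adjusted p = 0.0367) and with an intensity trend and robust variances (adjusted p = 0.0423). Within arrays the log2 ratio of Nrp1 over Ikzf2 differed by -0.29 ± 0.10 both from eTreg and from e_iTreg, with overlap in both (two-sided exact permutation test, p = 0.0571, adjusted 0.0857).

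Nrp1 is also a known marker of plasmacytoid dendritic cells. Of 6 markers of those cells 1 rose (Bst2, 0.87 ± 0.19) and 1 fell (Pacsin1, -0.92 ± 0.10) against eTreg. Siglech, which defines these cells and was named after its value was seen, averaged 6.17 for eTreg, 6.44 for e_iTreg and 5.99 for iTreg. These averages lie near or below the array medians of 6.28 to 6.50, so Siglech was dim in every group. Against e_iTreg the counts were 1 higher and 2 lower, with Siglech at -0.45 ± 0.12 among those that fell (adjusted p = 0.0298). Over all rows the shares called were 9.99% against eTreg and 11.2% against e_iTreg. The list mean ran from 7.46 to 7.78 in eTreg, from 7.49 to 7.78 in e_iTreg and from 7.46 to 7.73 in iTreg. With group means removed, its Pearson r with Nrp1 over the 12 arrays was -0.07. Beyond this description, the part of these cells in the Nrp1 values was not tested.

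Izumo1r, the folate receptor family member once called Folr4 and found on Treg, fell in iTreg. Its levels were 12.16, 12.27, 12.24 and 12.21 in eTreg, 12.11, 12.16, 12.39 and 12.24 in e_iTreg and 11.46, 11.92, 11.83 and 11.84 in iTreg. No iTreg array reached the others, and replicate 1 was the lowest. The gene fell by 0.46 ± 0.11 against eTreg (adjusted p = 0.0149), 1.37-fold, with a difference of -0.46 ± 0.11 from e_iTreg (adjusted p = 0.0138). Without the 3 arrays low in B cell markers the differences were of the same size, -0.45 ± 0.15 and -0.46 ± 0.13, with adjusted p-values of 0.157 and 0.0665. With the monocyte, macrophage and dendritic cell list as a covariate they were -0.48 ± 0.15 and -0.49 ± 0.15 (adjusted p = 0.16 and 0.116), with the plasma cell list -0.48 ± 0.13 against eTreg (adjusted p = 0.0542), and with Xist less the mean of Y-linked genes (the sex signal of the arrays) as a covariate -0.47 ± 0.13 against e_iTreg (adjusted p = 0.0599).

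Gpr83, a G protein-coupled receptor enriched in Treg, had the widest spread of the 9 genes. Its levels were 9.43, 10.09, 9.86 and 10.59 in eTreg, 9.56, 9.18, 9.83 and 10.18 in e_iTreg and 8.13, 9.36, 8.93 and 9.60 in iTreg. Of the iTreg arrays 3 lay below all eTreg arrays and 2 below all e_iTreg arrays. The difference from eTreg was -0.99 ± 0.30 (interval -1.63 to -0.35), close in size to that of Ikzf4, but its adjusted p was 0.0505. Against e_iTreg it was -0.68 ± 0.30 (adjusted p = 0.165), and -0.39 ± 0.26 without iTreg replicate 1, the lowest array. Leaving out 1 array decided the side of the threshold against eTreg, with adjusted p = 0.0253 without eTreg replicate 1 (-1.18), 0.0252 without iTreg replicate 4 (-1.19), 0.0473 without e_iTreg replicate 2 and 0.0478 without e_iTreg replicate 4, and up to 0.152 without others. Without the 3 arrays low in B cell markers it was -0.75 ± 0.34 (adjusted p = 0.326), and with the B cell marker mean as a covariate -0.89 ± 0.25 (adjusted p = 0.0402). Of 26 alternative settings Gpr83 was called lower against eTreg in 9 and missed the threshold in 17.

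Swap70, a guanine nucleotide exchange factor for Rac that acts on the actin cytoskeleton and is also well expressed in B cells, fell in iTreg. Its levels were 8.98, 9.02, 9.17 and 8.93 in eTreg, 9.07, 9.01, 9.12 and 9.13 in e_iTreg and 8.84, 8.53, 8.53 and 8.77 in iTreg. The groups did not overlap, and the gap to the lowest eTreg array was 0.10. It fell by 0.36 ± 0.10 against eTreg (adjusted p = 0.0301), 1.28-fold, with a difference of -0.42 ± 0.10 from e_iTreg (adjusted p = 0.0139), 1.33-fold. The call against eTreg was lost without eTreg replicate 2 (-0.36, adjusted p = 0.0716), eTreg replicate 3 (-0.31, 0.102), iTreg replicate 2 (-0.31, 0.0724) or iTreg replicate 3 (-0.31, 0.0878), and with all rows of the table tested (adjusted p = 0.0541) or only the 2 groups fitted (adjusted p = 0.0585). With the B cell marker mean as a covariate the gene was at -0.35 ± 0.10 (adjusted p = 0.044), and without the 3 arrays low in those markers at -0.33 ± 0.13 (adjusted p = 0.227). With the plasma cell list as a covariate it was at -0.42 ± 0.12 (adjusted p = 0.0557), and with the monocyte, macrophage and dendritic cell list at -0.40 ± 0.14 (adjusted p = 0.198). Against e_iTreg the call was lost without the 3 arrays low in B cell markers (-0.40 ± 0.11, adjusted p = 0.0619), with the monocyte, macrophage and dendritic cell list (-0.45 ± 0.13, adjusted p = 0.108) and with the sex signal (-0.42 ± 0.12, adjusted p = 0.0668). Of the 13 B cell markers 0 passed limma's test in any comparison, over all rows, and 0 had an unadjusted p under 0.05.

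The RefSeq promoter table (GRCm38.p6) held 6 of the 9 genes, Ikzf1, Ikzf5, Nrp1, Gpr83, Swap70 and Izumo1r, and Ikzf2, Ikzf3 and Ikzf4 were not in it. The 250 bases before the start of Swap70 (chr7:110221453-110221702, + strand) are shown because Swap70 is the gene among those that fell whose window lies wholly outside the annotated gene. They were searched on both strands for TGGGAA, a core that Ikaros family proteins bind, and for GTAAACA, a forkhead core of the kind Foxp3 binds, and matches are in capitals.
Swap70: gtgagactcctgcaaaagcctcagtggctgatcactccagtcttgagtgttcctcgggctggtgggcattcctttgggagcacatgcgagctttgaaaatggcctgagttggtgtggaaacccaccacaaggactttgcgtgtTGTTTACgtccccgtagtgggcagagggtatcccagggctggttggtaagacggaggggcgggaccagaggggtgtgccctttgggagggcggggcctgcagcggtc
The window held 1 forkhead core, as its reverse complement TGTTTAC, and 0 Ikaros cores, with a GC content of 59.6%. Of all 32851 promoter windows of that length 3.17% held the forkhead core and 21.6% the Ikaros core. Of the other 5 genes Gpr83 held 1 Ikaros core and the rest held neither. A match is a run of letters and not a measured site.

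The genes that work with the Ikaros family moved in part. Of 10 transcription factors known to act with Foxp3 or Eos, 5 fell and 1 rose against eTreg, and 3 fell and 0 rose against e_iTreg. Over all rows 9.99% were called against eTreg (4.63% lower) and 11.2% against e_iTreg (4.75% lower). The list's medians were -0.30 and -0.24, beside -0.01 and -0.07 over all rows. Foxp1, a forkhead relative of Foxp3, fell, at -0.91 ± 0.12 against eTreg and -0.77 ± 0.12 against e_iTreg. Bach2, a repressor that holds lymphocytes in a resting state, fell, at -1.02 ± 0.15 and -1.05 ± 0.15. Gata1, at 8.03 in eTreg, fell, at -0.88 ± 0.17 and -0.62 ± 0.17. Satb1 (-0.65 ± 0.18) and Lef1 (-0.54 ± 0.12) fell and Cbfb (0.40 ± 0.11) rose against eTreg alone, and these 3 were named after their values were seen; whether they differ between the 2 comparisons was not tested. Irf4, an effector Treg factor, was at 0.65 ± 0.22 (adjusted p = 0.0798).

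**Figure D5:**
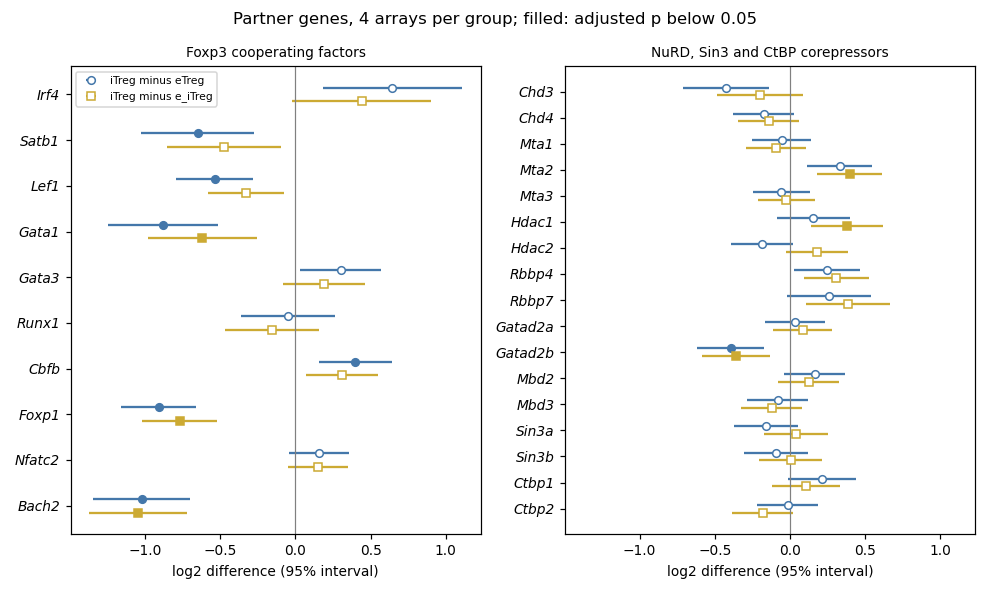
Log2 differences with 95% intervals of 10 transcription factors known to act with Foxp3 or Eos (left) and 17 corepressor subunits (right), in iTreg minus eTreg (circles) and iTreg minus e_iTreg (squares), 4 arrays per group; filled points have an adjusted p below 0.05. Foxp1, Bach2 and Gata1 are lower in both, and among the corepressors Gatad2b is.

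The counts among the corepressors that the family recruits stood near the share of all rows. Of 17 NuRD, Sin3 and CtBP genes 1 fell and 0 rose against eTreg, and 1 fell and 2 rose against e_iTreg, beside 9.99% and 11.2% called over all rows. The list's medians were -0.05 and 0.04, beside -0.01 and -0.07. Gatad2b, a NuRD subunit, fell, at -0.39 ± 0.10 and -0.36 ± 0.10. Mta2 was at 0.33 ± 0.10 against eTreg (adjusted p = 0.0526) and rose by 0.40 ± 0.10 against e_iTreg, as did Hdac1 (0.38 ± 0.11), which was named after its value was seen. The helicase subunit Chd3 was at -0.42 ± 0.13 against eTreg (adjusted p = 0.0602). Ctbp1, a partner of Eos also named after its value was seen, was at 0.22 ± 0.11 (adjusted p = 0.256).

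Of 3 genes that family members are known to repress in T cells, 2 rose in both comparisons with iTreg. Over all rows 5.36% were called higher against eTreg and 6.49% against e_iTreg. Whether their rise is linked to any family member was not tested. Tbx21, which encodes T-bet, was at 8.01, 7.49, 7.58 and 7.40 in eTreg, between 7.65 and 7.85 in e_iTreg and at 9.53, 9.06, 9.09 and 8.85 in iTreg, with every iTreg array above the rest. Its difference from eTreg was 1.51 ± 0.15 (adjusted p = 0.000177) and from e_iTreg 1.38 ± 0.15. Ifng rose by 1.24 ± 0.21 and 1.12 ± 0.21, from 7.54, 7.26, 7.45 and 6.97 in eTreg to 9.16, 8.83, 8.18 and 8.01 in iTreg. Il2, which Treg keep silent, was dim, averaging 4.03 for eTreg, 4.38 for e_iTreg and 4.01 for iTreg, with differences of -0.03 ± 0.18 from eTreg and -0.38 ± 0.18 from e_iTreg.

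For the partners of Nrp1 and Swap70, and the folate receptors and carriers listed beside Izumo1r, the counts, too, were near the shares over all rows. Those shares called were 9.99% against eTreg and 11.2% against e_iTreg, and the counts show nothing particular to these lists. Of 15 measured genes of the neuropilin and semaphorin pathway 0 passed against eTreg by limma, with 4 at an unadjusted p under 0.05, and 1 rose against e_iTreg. That gene was Sema4a, a known ligand of Nrp1 on Treg, at 0.46 ± 0.11 against e_iTreg (adjusted p = 0.0184) and 0.36 ± 0.11 against eTreg (adjusted p = 0.0616). Plxna3 was at -0.30 ± 0.11 and Plxnb2 at 0.40 ± 0.15 against eTreg, neither past the threshold. Of the 4 folate receptors and carriers 0 passed in either comparison, and 0 had an unadjusted p under 0.05. Folr1 was at -0.06 ± 0.15, Folr2 at 0.01 ± 0.10, Slc19a1 at -0.21 ± 0.11 and Slc46a1 at -0.06 ± 0.12 against eTreg. Of 7 measured partners of Swap70 only the small GTPase Cdc42 passed, higher by 0.32 ± 0.09 against eTreg and 0.29 ± 0.09 against e_iTreg. Rac1 was at 0.18 ± 0.09 and the close relative Def6, named after its value was seen, at -0.03 ± 0.11.

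Other Treg genes moved both ways. Of 17 Treg core genes other than the 9, 4 rose and 3 fell against eTreg, and 3 rose and 4 fell against e_iTreg, beside 9.99% and 11.2% of all rows called. The list's medians were -0.09 and 0.00, beside -0.01 and -0.07. Socs2, a target of STAT5, rose by 0.95 ± 0.19, the costimulator Icos by 1.03 ± 0.21 and the actin-capping protein gene Capg by 0.56 ± 0.12 against eTreg. Lrrc32 (GARP, which holds latent TGF-beta on the cell surface) was at -0.80 ± 0.18 (adjusted p = 0.0102), Nt5e (CD73) at -0.54 ± 0.12 (adjusted p = 0.0113) and Cd83 at -0.74 ± 0.21 (adjusted p = 0.0353). These 3 fell, and Tigit, an inhibitory receptor, rose by 1.21 ± 0.31 (adjusted p = 0.0206); all 4 were named after their values were seen. Of 2 genes known as higher in Nrp1-low Treg, Igfbp4 fell by 0.49 ± 0.10 against eTreg (adjusted p = 0.007) and was at -0.13 ± 0.10 against e_iTreg. Dapl1 was at -0.19 ± 0.21 (adjusted p = 0.693) against eTreg.

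The genes whose levels ran most like those of a member over the 12 arrays were sought among 10389 genes above the median level, as a description. For Ikzf4 they were Mical3, Ankrd12, Phf1 and Ankrd13b, with Pearson r of 0.99, 0.99, 0.98 and 0.97, and with the group means removed r was 0.89, 0.91, 0.82 and 0.83. Phf1, a subunit of polycomb repressive complexes, was at -0.81 ± 0.10 against eTreg and Ankrd12 at -0.72 ± 0.10, both past the threshold. For Ikzf2 the closest were Xylt1, Fam98b, Exoc4 and Lrrc45 (r of 0.87, 0.85, 0.85 and 0.84), none of which passed the test in any comparison with iTreg. For Nrp1 they were Wls, Ctdp1, Rgs9 and Slc20a1 (r of 0.95, 0.94, 0.94 and 0.94). Wls, which carries Wnt proteins to the cell surface, was at -0.59 ± 0.16 and Rgs9, a regulator of G protein signalling, at -0.85 ± 0.18 against eTreg, both past the threshold. Ctdp1 was at -0.16 ± 0.09 (adjusted p = 0.386) and Slc20a1 at -0.34 ± 0.12 (adjusted p = 0.111), neither past it. The closest genes were the best of many, and the arrays they were ranked on share RNA input, amplification and cell make-up.

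Within groups the 9 genes varied together in some pairs and in opposite directions in others. With group means removed, Pearson r over the 12 arrays was 0.70 for Gpr83 and Izumo1r, 0.63 for Ikzf2 and Nrp1, 0.63 for Ikzf1 and Ikzf3 and 0.59 for Ikzf4 and Izumo1r. It was -0.63 for Nrp1 and Gpr83 and 0.24 for Ikzf2 and Ikzf4. Against the marker lists Ikzf4 had r of -0.72 with CD8 T and NK cell, -0.68 with B cell and -0.54 with monocyte, macrophage and dendritic cell markers, Gpr83 had -0.70 with CD8 T and NK cell markers, Ikzf3 had 0.78 and Nrp1 -0.77 with plasma cell markers, and Swap70 had -0.18 with B cell markers. The plasma cell list stood at 9.43 in iTreg replicate 4, which had the highest Ikzf3 (10.50) and the lowest Nrp1 (9.87). Both values with that list therefore rest largely on 1 array. With the monocyte, macrophage and dendritic cell list, also highest in that array, Ikzf3 had 0.61 and Nrp1 -0.66. These are descriptions over 12 arrays that share cell make-up and amplification.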

How the data were processed

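Each sample was 2 ng of RNA, amplified in 2 rounds and hybridized to an Affymetrix mouse array, per the labels' protocols. The deposited values are log2 expression per probe set, which the authors made with oligo and RMA per the submitters' processing notes; versions, settings and build are not given in the sources used here. Of 41345 rows, 23521 had exactly 1 gene symbol in the platform annotation and were tested, 1814 had several and 16010 none; 23328 matched RefSeq by gene number.

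One limma 3.58.1 model (R 4.3.3) was fitted to all 12 arrays (9 residual and 5.78 prior degrees of freedom) without covariates. Contrasts were tested two-sided with Benjamini-Hochberg adjustment over the 23521 rows at 0.05. Errors beside differences are SE, beside levels SD. The number of arrays limits the precision, and the fit was tested on simulated data. For the within-array ratios, group means were compared by an exact permutation test over arrays.

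The members, lists and tests were chosen with earlier results of these data known. Genes were named by rule: all members, 3 per list with the smallest p against eTreg (all in lists of at most 4), and the 4 most correlated with Ikzf4, Ikzf2 and Nrp1. Replicate numbers are shared between groups, but deviations from group means correlated over 0.1 in only 3 of 12 same-numbered pairs, so they were not treated as pairs. Alternatives covered normalization, filters, error models, the replicate block, thresholds, marker covariates and leaving out arrays. The covariates for plasma cell and for monocyte, macrophage and dendritic cell markers were added after seeing the data.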

Additional observations from a re-analysis of the deposited data

Results flagged for a closer look

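Over 27 sets of 4 values of the 9 genes, 0 held an array standing far from the other 3 by Dixon's criterion. Among 42 such sets of list means 4 did, where chance gives about 5%. The plasma cell list stood at 9.43 in iTreg replicate 4, the other iTreg arrays lying between 7.37 and 7.66, and the monocyte, macrophage and dendritic cell list at 8.50 in the same array against 7.32 to 7.50. The folate receptor list was at 6.54 in iTreg replicate 1 against 6.73 to 6.75, the array in which Izumo1r was also lowest. These list means lie little above the array medians of 6.28 to 6.50, and a link to Izumo1r was not tested. The neuropilin and semaphorin list was at 7.15 in eTreg replicate 3 against 7.10 in the others.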

How the results depend on the processing

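In e_iTreg minus eTreg 0 of the 9 genes passed under any of 28 settings. In both comparisons with iTreg no member rose under any setting. The count of 3 that fell was between 0 and 4 against eTreg and between 1 and 4 against e_iTreg. Asking for a fold of at least 1.5, or leaving out the 3 arrays low in B cell markers, left 1 gene, Ikzf4, in each. With plasma cell markers as a covariate 1 (Ikzf4) fell against eTreg, with monocyte, macrophage and dendritic cell markers 0 fell against eTreg and 1 against e_iTreg, and with the sex signal 1 against e_iTreg. Without 1 array at a time the count was 2 to 4 against eTreg, 3 to 4 against e_iTreg and 0 in e_iTreg minus eTreg. Ikzf4 passed against eTreg in 25 of 26 settings (-1.10 to -0.82) and against e_iTreg in 26 of 26 (-1.14 to -0.84).

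With the replicate number as a block 3 genes fell against eTreg, Ikzf4, Gpr83 (-0.99 ± 0.19, adjusted p = 0.00666) and Izumo1r, with Swap70 at an adjusted p of 0.055, and 4 fell against e_iTreg, with Gpr83 at 0.0414; in 6 of 24 checks an array's deviations correlated best with its own number, so the pairing is not shown. Quantile normalization and median centring changed no call against eTreg. Of the 702 values of the 9 genes under 26 settings 667 kept their side of the threshold. Among values called in the main fit or in the setting 0 changed direction. Uncalled estimates near 0 did in places, as for Ikzf3 in iTreg minus e_iTreg, which ran from -0.18 to 0.16.

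The Ikzf4 over Ikzf2 difference ran from -1.06 to -0.91 against eTreg, -1.04 to -0.85 against e_iTreg and -0.16 to 0.04 between e_iTreg and eTreg when 1 array was left out. Ikzf4 over Ikzf1 ran from -1.01 to -0.84, -1.01 to -0.83 and -0.08 to 0.07, and Nrp1 over Ikzf2 from -0.35 to -0.22, -0.36 to -0.23 and -0.06 to 0.07. Each member has 1 probe set, so averaging probe sets gives the same ratios.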
